A study of Mus musculus with 6 samples.

Results

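The genes described here process linoleate and acylceramides for the outer lipid layer of the corneocyte. They were taken by name: the lipoxygenases Alox12b, Aloxe3, Alox12, Alox12e, Alox15 and Alox5, and the acylceramide genes Sdr9c7, Pnpla1, Cyp4f39 and Abca12. Of these 10 genes, 9 were read by 15 of the 41174 probes, matched through RefSeq transcript accessions; no probe matched Pnpla1. Among the 18217 genes named on the array 12824 were tested, 8 of the 10 among them. Epidermis of newborn mice (postnatal day 0, mixed strain) was compared between 3 AhRCA mice and 3 wild-type (WT) mice, with 1 array per mouse. AhRCA mice express a constitutively active aryl hydrocarbon receptor (AhR), a ligand-activated transcription factor, from the keratin 14 promoter, which is active in basal keratinocytes. Each sampling took 1 AhRCA mouse and 1 WT littermate, so that replicates with the same number form a litter pair; neither group is described as receiving any treatment. Keratins of the basal and spinous layers read brightly in both genotypes, with normalized log2 intensities of 8.14 in AhRCA and 8.13 in WT for Krt5, and of 8.90 in AhRCA and 8.95 in WT for Krt10.

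Values are log2 spot intensities minus the 75th percentile of the same array, so that positive values are brighter than that percentile and negative values dimmer. Between 56.2% and 61.3% of spots per array were well above background, 0 were saturated, and precision is limited by the 6 arrays. Pairs 1 and 2 lay on slide 1 and pair 3 on slide 2. The brightest Xist probe read 4.66, 4.57 and -7.14 in AhRCA 1 to 3 and 4.43, 4.44 and -4.20 in WT 1 to 3, and Ddx3y of the Y chromosome was high on the arrays of pair 3 alone. Slide, litter and sex of pair 3 therefore cannot be told apart, and each was balanced between the genotypes.

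In the outermost living layers of the epidermis, linoleate bound to omega-O-acylceramides is oxidised and the product is coupled to proteins of the cornified envelope. Cyp4f39 belongs to the P450 enzymes that hydroxylate the end of ultra-long fatty acids, Pnpla1 transfers linoleate onto the hydroxylated ceramide, and Abca12 loads the glucosylated lipid into lamellar granules. The 12R-lipoxygenase Alox12b then oxidises the linoleate, Aloxe3 isomerises the hydroperoxide to an epoxy alcohol, and Sdr9c7 dehydrogenates that product. In humans, loss of the corresponding genes causes congenital ichthyosis. Alox12 and Alox12e are 12S-lipoxygenases, Alox15 is the leukocyte 12/15-lipoxygenase and Alox5 starts leukotriene synthesis in myeloid cells, among them mast cells and Langerhans cells.

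None of the 8 tested genes passed an adjusted p of 0.05 between AhRCA and WT epidermis in the unpaired fit (limma, Benjamini-Hochberg over 12824 genes), against 2.18% of all genes. An unadjusted p under 0.05 was found for 1 of the 8, Alox5, against 12.2% of all genes. The other 7 genes had log2 fold changes between -0.19 and 0.18. Their 95% intervals, each for 1 gene and without adjustment for the number of genes, all lay between -0.58 and 0.59, and adjusted p was between 0.805 and 0.999. Alox5 was the exception in size, at -1.13. The median log2 fold change of the 8 genes was -0.05, beside 0.00129 over all genes tested.

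**Figure D1:**
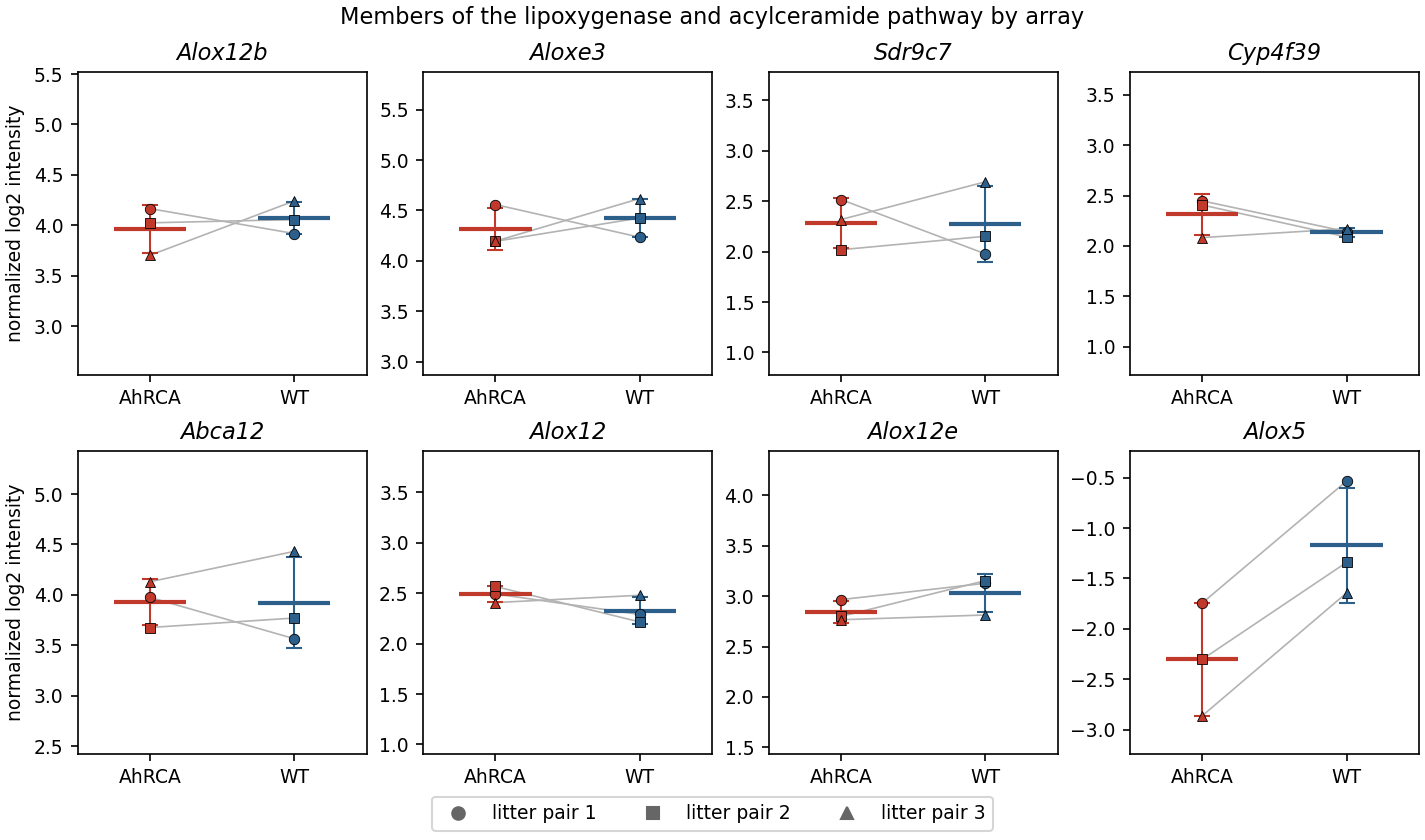
Normalized log2 intensity (y axis, relative to the 75th percentile of the array, the same 3-unit span in each panel) of the 8 tested genes in AhRCA and WT arrays. Points are single mice, marker shapes and grey lines give the litter pair, and bars give the mean and SD of 3 arrays; Alox5 is the 1 gene whose genotypes do not overlap.

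Alox12b, the 12R-lipoxygenase that starts linoleate oxidation, read 4.16, 4.02 and 3.70 in AhRCA 1 to 3 and 3.92, 4.06 and 4.24 in WT 1 to 3 (normalized log2 intensity). The genotypes overlapped, and the arrays of pair 3 gave both the lowest value (AhRCA 3) and the highest (WT 3). The log2 fold change was -0.11 ± 0.16 (SE, n = 3 per group), with a 95% interval from -0.49 to 0.27 (adjusted p = 0.994, limma). A dimmer probe of the gene gave a difference of -0.12 (1.86 in AhRCA and 1.98 in WT). Within slide 1 alone the sign was the opposite, at 0.11.

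Aloxe3, the hydroperoxide isomerase that acts next, read 4.56, 4.19 and 4.20 in AhRCA 1 to 3 and 4.23, 4.43 and 4.62 in WT 1 to 3. AhRCA 1 and WT 3 were the high arrays and the groups overlapped. Its log2 fold change of -0.11 ± 0.16 had a 95% interval from -0.49 to 0.27 (adjusted p = 0.992, limma), and was 0.05 within slide 1. Over the 6 arrays the 3 tested genes with the smallest Euclidean distance to the centred values of Aloxe3 were Cpne8, Ttll1 and Lgalsl (0.11 to 0.12 log2 units). For Alox12b they were Bicdl2, Flvcr2 and Gm3020, also at 0.11 to 0.12.

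Sdr9c7, the dehydrogenase of the epoxy alcohol, read 2.52, 2.02 and 2.32 in AhRCA 1 to 3 and 1.98, 2.15 and 2.69 in WT 1 to 3. WT 3 was the brightest and WT 1 the dimmest of the 6 arrays. The difference was 0.01 ± 0.22 (95% interval -0.52 to 0.54, adjusted p = 0.999, limma), and a second probe gave -0.02.

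Abca12, the lipid transporter of lamellar granules, read 3.97, 3.68 and 4.13 in AhRCA 1 to 3 and 3.56, 3.77 and 4.43 in WT 1 to 3. The array of pair 3 was the brightest in each genotype, by 0.30 over the mean of the slide 1 arrays in AhRCA and by 0.76 in WT. The genotypes differed by 0.00485 ± 0.25 on the log2 scale (95% interval -0.58 to 0.59, adjusted p = 0.999, limma). A dimmer second probe gave -0.10.

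Cyp4f39, the omega-hydroxylase, read 2.45, 2.41 and 2.08 in AhRCA 1 to 3 and 2.14, 2.09 and 2.17 in WT 1 to 3. The WT arrays had an SD of 0.04, and AhRCA 3 lay below each of them while AhRCA 1 and 2 lay above. The log2 fold change of 0.18 ± 0.13 had an interval from -0.13 to 0.49 (adjusted p = 0.815, limma).

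Alox12, the platelet-type 12S-lipoxygenase, read 2.49, 2.57 and 2.41 in AhRCA 1 to 3 and 2.29, 2.21 and 2.48 in WT 1 to 3. AhRCA 1 and 2 were above every WT array and AhRCA 3 was not. The log2 fold change was 0.16 ± 0.12 (95% interval -0.12 to 0.44, adjusted p = 0.811, limma) and a second probe gave 0.15. Alox12e, an epidermis-type 12S-lipoxygenase that is active in mice, read 2.97, 2.80 and 2.77 in AhRCA 1 to 3 and 3.13, 3.15 and 2.81 in WT 1 to 3. It was lower in AhRCA in each of the 3 pairs although the groups overlapped (-0.19 ± 0.13, interval -0.51 to 0.13, adjusted p = 0.805). Alox15 did not rise well above background in any of the 6 mice, with readings from -7.07 to -6.59 in AhRCA and from -7.25 to -5.47 in WT.

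**Figure D2:**
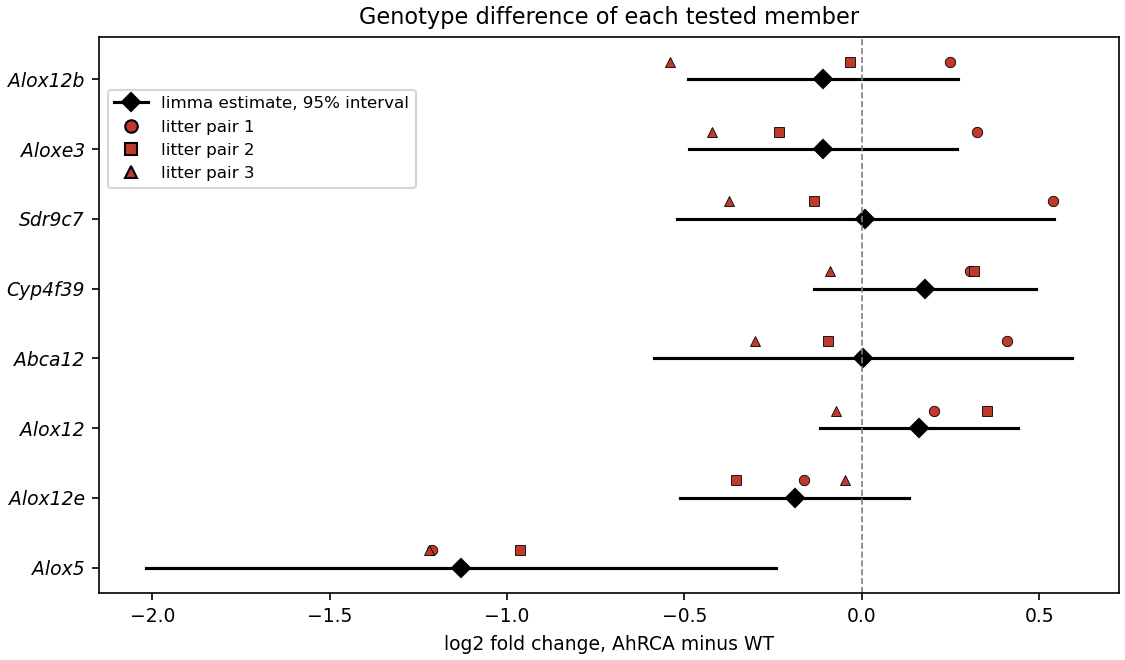
Log2 fold change of AhRCA minus WT (x axis) for the 8 tested genes, with the limma estimate and its 95% interval in black and the difference within each litter pair in red. All intervals except that of Alox5 span 0, and the Alox5 differences of the 3 pairs lie between -1.22 and -0.96.

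Alox5, the 5-lipoxygenase, was lower in AhRCA epidermis in all 3 litters. Its brightest probe read -1.74, -2.30 and -2.86 in AhRCA 1 to 3, against -0.53, -1.34 and -1.64 in WT 1 to 3. Every AhRCA array was below every WT array, as in 8.84% of all genes (16.4% do not overlap in either direction), although AhRCA 1 and WT 3 differed by little. The SD within a genotype was 0.56 in AhRCA and 0.57 in WT, while the differences within pairs 1 to 3 were -1.21, -0.96 and -1.22. With all arrays unpaired the log2 fold change was -1.13 ± 0.37 (95% interval -2.02 to -0.24) and missed the threshold (adjusted p = 0.250, limma). Blocked by litter pair, a pairing that the labels give, it passed at -1.13 ± 0.10 (adjusted p = 0.0151, limma), when 3.88% of all genes passed, 2.81% as lower and 1.07% as higher. AhRCA epidermis then held 45.7% of the WT signal. Blocked by slide its adjusted p was 0.0845, when 4.20% of all genes passed.

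The other probes of Alox5 were lower in AhRCA by similar amounts. The second probe read -2.21, -2.56 and -3.11 in AhRCA 1 to 3, against -0.95, -1.69 and -1.94 in WT 1 to 3, a difference of -1.10. The third, which was well above background on 2 of 3 AhRCA arrays and on all WT arrays, differed by -1.16. The probes read 1 gene in the same RNA and are no replicates of each other.

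**Figure D3:**
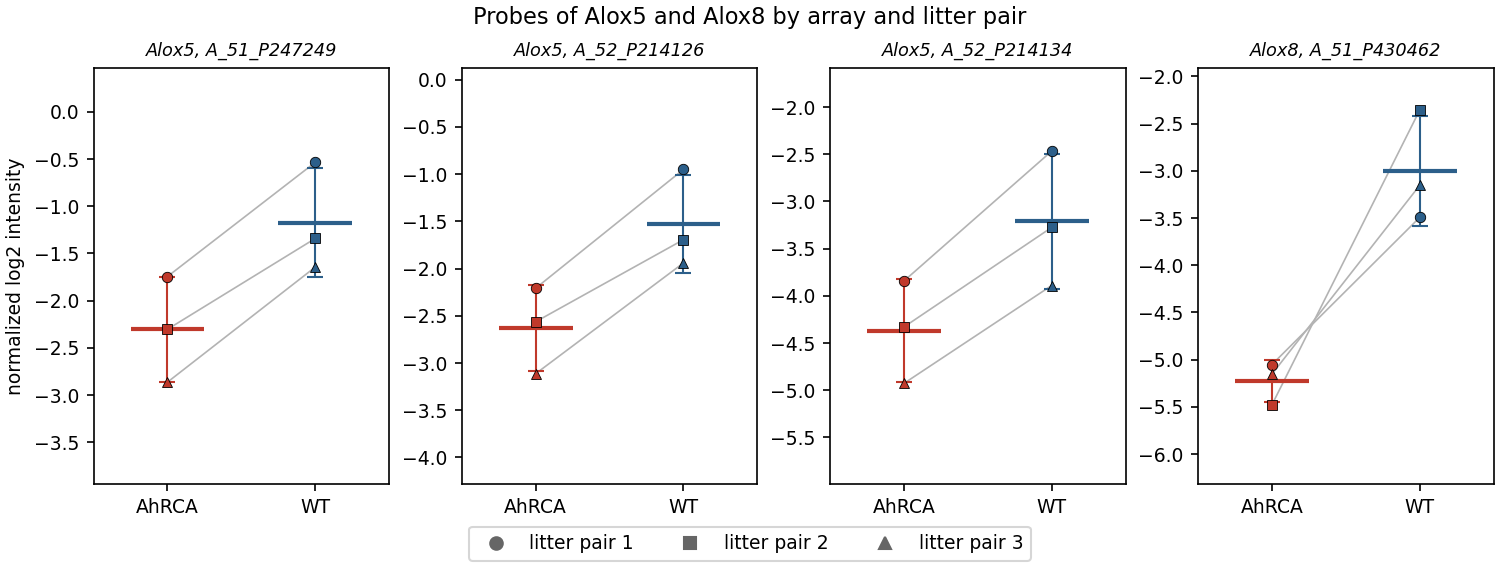
Normalized log2 intensity (y axis, relative to the 75th percentile of the array) of the 3 probes of Alox5 and the single probe of Alox8 in AhRCA and WT arrays; grey lines join the mice of a litter pair, bars give mean and SD of 3 arrays. The lines of Alox5 run nearly parallel in all 3 probes, and the 3 AhRCA readings of Alox8 were not well above background.

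In bulk epidermis fewer cells of a type and less RNA per cell cannot be told apart. The summed linear signal of 8 Langerhans and dendritic cell markers, in units of the 75th percentile of the array, was between 1.77 and 4.58 in AhRCA and between 5.19 and 10.5 in WT; Ccr7 and Flt3 were on no array well above background. Of the 6 tested markers 1 fell and 0 rose, namely Cd207, the langerin gene (-2.59 ± 0.35, adjusted p = 0.0206, limma). It was dimmer than the background cutoff on all 3 AhRCA arrays, and at least 3.09-fold lower as a bound from that cutoff. Cd207 entered the test through its WT arrays alone and was not tested where all 6 arrays had to pass the background cutoff. Its call was lost with no filter on dim probes (0.0538) and without AhRCA 1 (0.0534), AhRCA 2 (0.0599), WT 1 (0.0588) or WT 2 (0.0879). After normexp correction its log2 fold change was -0.75, a smaller difference than that bound. H2-Ab1, an MHC class II gene, had -1.64 ± 0.52 (adjusted p = 0.227) and Cd74, the invariant chain, -1.15 ± 0.33 (adjusted p = 0.182). H2-Ab1 (0.40 in AhRCA and 2.04 in WT) and Cd74 (0.29 and 1.44) were the brightest of the list and made up most of the sum. The co-stimulatory gene Cd86 was higher on every AhRCA array than on any WT array, as were 7.52% of all genes, without passing (0.44 ± 0.18, adjusted p = 0.388). Cd86 lay near background, and was well above it on 2 AhRCA arrays and 1 WT array only. The integrin gene Itgax had 0.01 ± 0.32. Blocked by litter pair 3 of the 6 fell, Cd207, H2-Ab1 (adjusted p = 0.0237) and Cd74 (0.0114) among them.

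The summed signal of 7 macrophage markers was between 4.21 and 4.82 in AhRCA and between 2.95 and 3.24 in WT, with Lyz2 and Cd163 on no array well above background. Of 5 tested, Adgre1 (0.67 ± 0.10, adjusted p = 0.0321, limma) and C1qa, a complement component (0.86 ± 0.15, adjusted p = 0.0480), rose and 0 fell, while the receptor gene Csf1r had 0.13. Both calls were lost when any 1 array was left out, with median scaling, with no filter on dim probes and within slide 1. The mast cell and basophil genes Cpa3, Tpsb2, Fcer1a and Ms4a2 were on no array well above background, and the same held for 5 of 7 neutrophil and eosinophil genes and 4 of 7 platelet genes. Summed signals were 0.176 to 0.181 in AhRCA and 0.180 to 0.389 in WT for mast cells and basophils, 0.0710 to 0.0814 in AhRCA and 0.0661 to 0.181 in WT for neutrophils and eosinophils, and 0.359 to 0.550 in AhRCA and 0.436 to 0.560 in WT for platelets, with 0 of 5 tested genes of these lists passing. Among them the mast cell chymase Cma1 had -0.07 and was well above background on all 3 AhRCA and all 3 WT arrays. Hdc, which makes histamine, had -0.64 and was well above it on 2 AhRCA arrays and 1 WT array. The platelet genes Gp1bb and Itga2b had 0.15 and -0.60. The part of any of these cells in the Alox5 result was not tested.

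Sebaceous gland markers were lower in AhRCA in 6 of 10 tested genes and higher in 0 (7 and 0 blocked by litter pair, Scd3 being added at adjusted p = 0.0251). The 6 were Elovl3, a fatty acid elongase (-3.57, adjusted p = 0.00497, limma), Soat1, a sterol esterifying enzyme (-2.34, 0.00196), Cidea, a lipid droplet protein (-2.19, 0.00500), Pparg, a nuclear receptor (-1.85, 0.0105), Scd1, a fatty acid desaturase (-1.37, 0.0140), and Awat2, a wax synthase (-1.17, 0.0182). The call of Pparg was lost without AhRCA 2 (0.0610) or WT 2 (0.0504). Scd1 and Awat2 were followed under the litter pair block alone (adjusted p = 0.00819 and 0.0205, limma), and not under the other alternatives. The list summed to between 64.0 and 65.8 in AhRCA and between 73.3 and 87.8 in WT, a sum that holds the fatty acid synthase Fasn, the brightest of the list, at 5.86 in AhRCA and 5.94 in WT (-0.07, adjusted p = 0.996).

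Of 8 basal and spinous keratinocyte genes 1 fell, the basal keratin Krt15 (-0.72 ± 0.13, adjusted p = 0.0460, limma), and 0 rose, with sums of 1238 to 1497 in AhRCA and 1395 to 1532 in WT. Krt15 lost its call in 10 of 16 alternatives, among them quantile normalization (0.0653), median scaling (0.0838), no filter on dim probes (0.103), the litter pair block (0.0534), slide 1 alone (0.123) and the removal of any array but WT 1 (0.0984 to 0.194). Fibroblast markers summed to 19.2 to 19.4 in AhRCA and 18.2 to 25.5 in WT, and the collagen gene Col1a2 had -1.19 (adjusted p = 0.0622) and Dcn, a proteoglycan gene, -0.18. Erythroid markers summed to 1.32 to 3.42 in AhRCA and 1.82 to 3.39 in WT, with -0.32 for the globin gene Hbb-bt and -0.27 for Hba-a1. Of the 9 tested genes of both lists 0 passed, and 1 did blocked by litter pair, the anion exchanger Slc4a1 of red cells (-1.43, adjusted p = 0.0461). Their part in the values of the 10 genes was not tested.

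Further along the leukotriene route, Alox5ap, which presents arachidonate to 5-lipoxygenase, had a log2 fold change of 0.03 ± 0.22 (95% interval -0.51 to 0.56). The leukotriene A4 hydrolase Lta4h had -0.02 ± 0.12 and the leukotriene C4 synthase Ltc4s -0.05 ± 0.21, each with an adjusted p of 0.999 (limma). Cysltr1, a receptor for cysteinyl leukotrienes, read higher on every AhRCA array than on any WT array (0.87 ± 0.20) as did 7.52% of all genes, without passing (adjusted p = 0.103, and 0.0747 blocked by litter pair). Alox5ap, Cysltr1 and the other single genes of this paragraph were picked from their list after their values were seen.

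Alox8, the mouse 8S-lipoxygenase, was the 1 gene of its list that passed the test. The list of lipoxygenase partners, product enzymes and receptors held 16 tested genes, of which 1 fell and 0 rose, beside 1.65% lower and 0.530% higher among all genes; its median was -0.04. Alox8 read -5.05, -5.48 and -5.15 in AhRCA 1 to 3, none of them well above background, and -3.49, -2.35 and -3.15 in WT 1 to 3, all well above it. The limma fit gave a log2 fold change of -2.23 ± 0.30 (adjusted p = 0.0186, and 0.0413 blocked by litter pair). As a bound from the background cutoff, Alox8 was at least 3.94-fold lower in AhRCA. Alox8 entered the test through its WT arrays alone and was not tested where all 6 arrays had to be well above background. The call was lost after normexp correction of the background (-0.86, adjusted p = 0.0635), a smaller difference than that bound. It was also lost within slide 1 (0.108) and without AhRCA 1 (0.0586), AhRCA 2 (0.0871), AhRCA 3 (0.0695) or WT 3 (0.0525). Among protein-coding genes of mouse chromosome 11, Aloxe3, Alox12b and Alox8 lie next to each other in this order, so the gene that fell adjoins Alox12b, whose difference was -0.11.

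The promoters of Alox5 and Alox8 were set beside those of 2 genes of the group picked because they hold the core of the AhR element. The letters are the RefSeq strand of the gene in build GRCm38.p6, from 250 bases before to 50 after its start: chr6:116461129-116461428 on the minus strand for Alox5, chr11:69197794-69198093 on the minus strand for Alox8, chr11:70322481-70322780 on the minus strand for Alox12e and chr17:32452473-32452772 on the plus strand for Cyp4f39. Capitals mark GCGTG, the AhR element core, and GGGCGG, a GC box, on either strand.
Alox5: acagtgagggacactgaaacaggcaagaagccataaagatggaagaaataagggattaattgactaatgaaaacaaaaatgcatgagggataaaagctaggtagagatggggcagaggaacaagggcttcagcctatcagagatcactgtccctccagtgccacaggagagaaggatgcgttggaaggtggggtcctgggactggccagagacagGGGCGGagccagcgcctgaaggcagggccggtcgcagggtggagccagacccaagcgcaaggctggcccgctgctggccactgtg
Alox8: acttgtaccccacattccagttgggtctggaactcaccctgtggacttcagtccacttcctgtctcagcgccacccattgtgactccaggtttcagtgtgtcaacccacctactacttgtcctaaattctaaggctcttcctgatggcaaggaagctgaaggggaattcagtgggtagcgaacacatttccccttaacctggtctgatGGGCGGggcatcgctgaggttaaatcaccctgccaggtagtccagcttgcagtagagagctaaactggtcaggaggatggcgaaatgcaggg
Alox12e: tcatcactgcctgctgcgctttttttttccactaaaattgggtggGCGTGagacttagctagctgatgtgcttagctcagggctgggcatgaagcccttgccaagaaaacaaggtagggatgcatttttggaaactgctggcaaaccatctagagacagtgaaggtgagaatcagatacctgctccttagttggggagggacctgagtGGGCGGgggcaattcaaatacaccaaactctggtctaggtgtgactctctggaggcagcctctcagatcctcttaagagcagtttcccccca
Cyp4f39: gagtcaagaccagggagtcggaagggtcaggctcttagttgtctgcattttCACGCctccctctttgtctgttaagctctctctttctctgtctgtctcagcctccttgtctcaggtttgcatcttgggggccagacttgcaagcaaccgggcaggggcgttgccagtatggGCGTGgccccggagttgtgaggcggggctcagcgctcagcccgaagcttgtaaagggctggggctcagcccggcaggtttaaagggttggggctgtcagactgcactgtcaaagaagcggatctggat
GCGTG was found in 0 copies in the windows of Alox5 and Alox8, in 1 copy for Alox12e and in 2 for Cyp4f39. Among these genes only Alox8 passed the unpaired test. The windows leave out more distant elements, and AhR binding was not tested. Promoter windows were listed for 8 of the 10 genes. GCGTG was in 3 of them, with 3 copies in Pnpla1, and in 32.4% of all 32851 windows of 300 bases. GGGCGG was in 4 of the 8, as 1 copy in Alox5 and 3 in Alox12b, and in 35.7% of all windows; within a window none of the matches overlapped.

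In the list of ceramide genes named acylceramide supply, 1 gene differed, and whether it acts on the acylceramides of these enzymes was not tested. Of 17 tested, 1 fell and 0 rose: Fa2h, the fatty acid 2-hydroxylase, passed as lower in AhRCA (adjusted p = 0.00546, limma). As a bound from the background cutoff, Fa2h was at least 25.3-fold lower. It was well above background on 0 of 3 AhRCA and 3 of 3 WT arrays, so that it entered the test through WT alone. After normexp correction, which adds an offset of 50 to every signal and so weighs most on dim ones, its log2 fold change was -2.91 (adjusted p = 0.000862, limma). That is a smaller difference than the bound. The other 16 had log2 fold changes between -0.19 and 0.20. Among them Elovl4, which makes the ultra-long acyl chain, had -0.06 ± 0.15, Slc27a4, a fatty acid transporter, -0.12 ± 0.17, Abhd5, the partner of Pnpla1, 0.14 ± 0.16, and Ugcg, the glucosylceramide synthase, -0.10 ± 0.13. No probe matched Cers3.

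Of 16 tested genes of the cornified envelope scaffold, to which the oxidised ceramides are coupled, 0 passed in either direction (limma). An unadjusted p under 0.05 was found for 1 of the 16, Tgm1, against 12.2% of all genes. Tgm1, the transglutaminase that cross-links the envelope, had -0.32 ± 0.13 (adjusted p = 0.397) and Lipk, a lipase of differentiating keratinocytes, 0.22 ± 0.21 (adjusted p = 0.919). Relatives of the other acylceramide genes included 1 that fell and 0 that rose among 10 tested. Pnpla5, a lipase of the family of Pnpla1, was lower by limma, at -2.36 ± 0.31 on the log2 scale (adjusted p = 0.0182). It was well above background on 2 of 3 AhRCA arrays and all WT arrays, and lost its call without AhRCA 1, AhRCA 2, WT 2 or WT 3 (adjusted p 0.0529 to 0.0881). After normexp correction it had -1.19 (adjusted p = 0.0132).

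**Figure D4:**
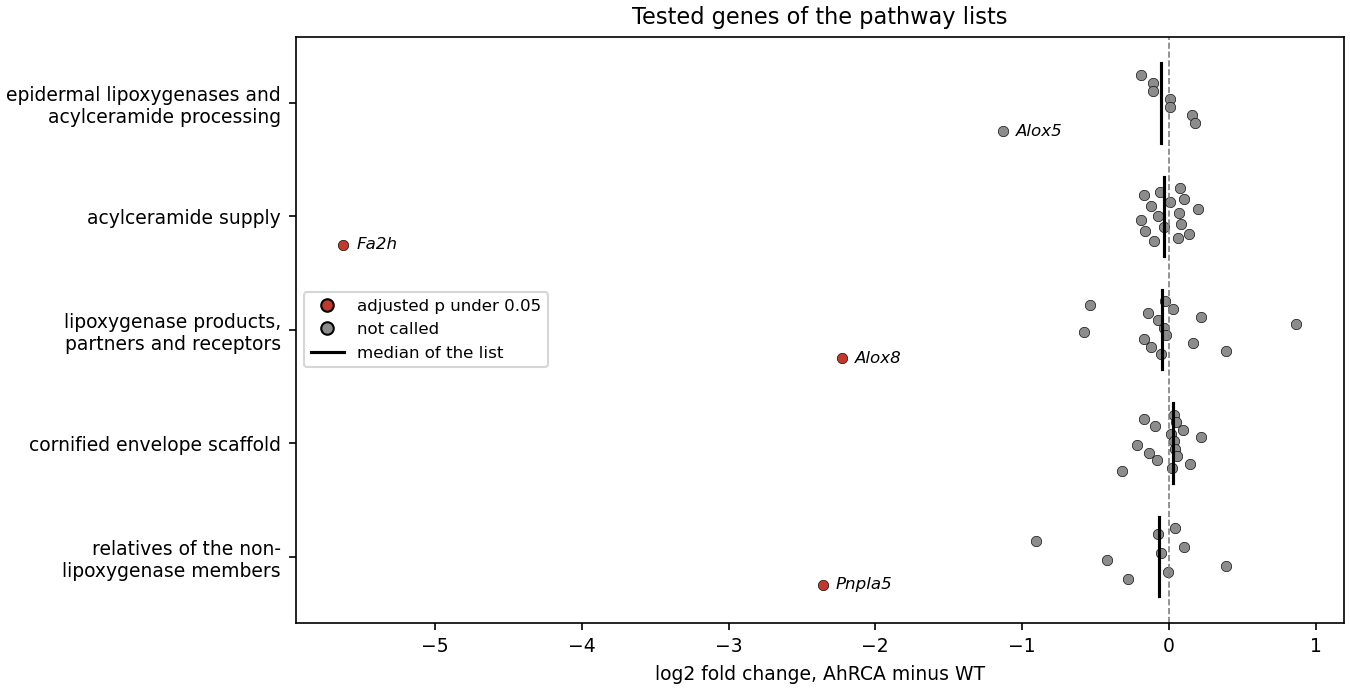
Log2 fold change of AhRCA minus WT (x axis) for the tested genes of the 10-gene group and 4 lists of pathway genes; red points passed an adjusted p of 0.05, vertical bars are list medians, and points are spread vertically for visibility only. Fa2h, Alox8 and Pnpla5 stand apart from lists whose medians lie between -0.06 and 0.03. The positions of Fa2h, Alox8 and the relative Rdh16 (-0.91, not called) are fitted values of genes not well above background in AhRCA.

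The sign of the small differences was not the same in the 3 litter pairs, and slide, litter and sex of pair 3 cannot be told apart. In pair 1 AhRCA was lower for 2 of the 8 genes (median difference 0.28 on the log2 scale), in pair 2 for 6 (median -0.11) and in pair 3 for 8 (median -0.34). Among all 12821 genes with values on every array AhRCA was lower for 47.7% in pair 1, 44.5% in pair 2 and 56.7% in pair 3, with medians of 0.01, 0.03 and -0.04. Of the cornified envelope scaffold 3, 4 and 16 of 16 genes were lower in AhRCA in pairs 1, 2 and 3 (medians 0.19, 0.08 and -0.31), and of acylceramide supply 3, 7 and 16 of 17 (medians 0.12, 0.03 and -0.31). In pair 2 acylceramide supply thus had about the median of all genes, the envelope list one above it and the 8 genes one below it. With quantile normalization these medians were 0, 0.02 and -0.16. Under quantile normalization pair 3 had 7 of 8 genes lower, and 14 of 16 envelope genes. Alox5 was lower in every pair and Alox12e too, whereas Alox12b, Aloxe3, Sdr9c7 and Abca12 were higher in AhRCA in pair 1 and lower in pairs 2 and 3. Slide 2 held pair 3 alone, without a replicate of either genotype. A test of the difference between slides therefore has little power, and a gene that does not pass it is not shown to be alike on both. The difference between slides, tested as an interaction after these values were seen, did not pass for any of the 8 genes (adjusted p 0.492 to 0.942, limma); 2 had an unadjusted p under 0.05, Alox12b and Cyp4f39, against 9.98% of all genes.

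**Figure D5:**
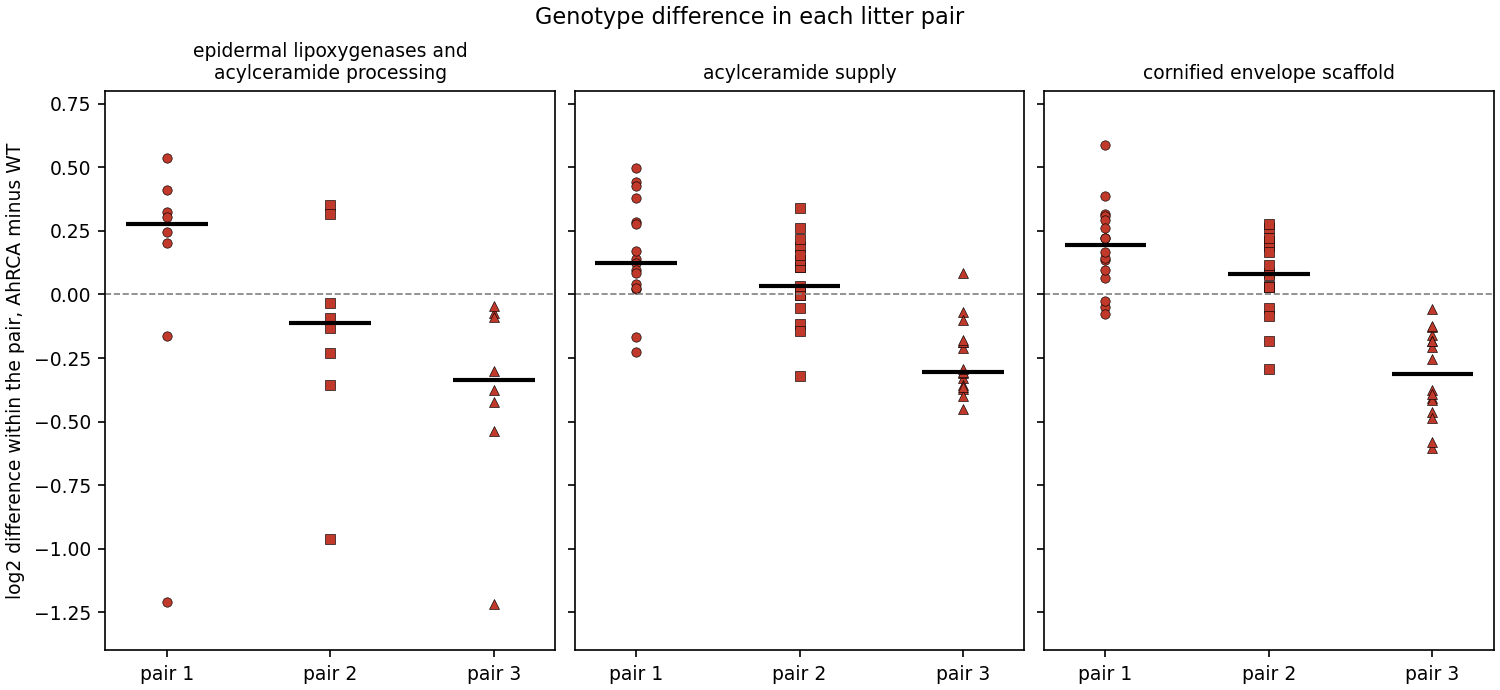
Log2 difference of AhRCA minus WT within each litter pair (y axis) for the 8 tested genes, 17 genes of acylceramide supply and 16 of the cornified envelope scaffold; each point is a gene and horizontal bars are medians. The medians are 0.28, 0.12 and 0.19 in pair 1 and -0.34, -0.31 and -0.31 in pair 3; Fa2h, between -6.42 and -4.54 in the 3 pairs, lies below the axis.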

How the data were processed

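Per the file headers, the scanner files hold intensities that Feature Extraction 10.7.3.1 (Agilent) gave the authors, background-subtracted and detrended within the array; per the labels, RNA was labelled with Cy3 (1 colour). The deposited table holds log2 values of the same arrays, scaled and centred by the authors in a way not given in the sources used here; it served as an alternative. Processed intensities were taken to log2, the 75th percentile of the non-control spots on each array was subtracted, outlier spots (56 to 94 per array) were left out and replicate spots averaged. The files hold no symbols: unversioned RefSeq accessions were matched to GRCm38.p6 names (26690 of 41174 probes matched 1 gene). A probe was kept where 3 or more of the 6 arrays had it well above background, and the brightest on average stood for its gene.

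AhRCA and WT were compared with limma 3.58.1 (2 group means, moderated spread, two-sided, Benjamini-Hochberg over 12824 genes, threshold 0.05), a procedure tested on simulated data. Where no array of a group had a gene well above background, the fold is a bound ("at least N-fold"): the brighter mean was set against the dim probe or, per array, the dimmest signal that passed the background test, whichever was higher. A bound holds for the main processing only, and the adjusted p printed near it belongs to the limma estimate. Deviations from group means correlated at 0.337, 0.372 and 0.55 between littermates and from -0.416 to 0.194 otherwise, across 12821 genes, so the labels' pairing was accepted. Beside the 10 genes, the rule named each pathway list's called genes or else the 2 with the largest change, and per cell type up to 4 called or brightest genes. Scd1, Awat2, Fasn, Scd3, Slc4a1, Cd86, Itgax and further single genes of the lists were named after their values were seen. Genes, lists and slide comparisons were chosen with earlier results of these data known. Planned normexp correction used spot medians, since the files hold no spot means.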

Additional observations from a re-analysis of the deposited data

How the results depend on the processing

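Of the genes that passed, Fa2h, Alox8, Pnpla5, Krt15, Soat1, Elovl3, Cidea, Pparg, Cd207, Adgre1 and C1qa were refitted under the alternatives, and none of them changed sign. The count of the 8 tested genes that passed stayed at 0 under every alternative except the replicate block (litter pair), where it was 1 (Alox5). Alox5 kept a negative difference in all 16 refits (-1.41 to -0.81), with adjusted p between 0.0151 and 0.517; the other 7 genes passed in none. The sign changed for Alox12b (-0.21 to 0.11), Aloxe3 (-0.23 to 0.05), Sdr9c7 (-0.14 to 0.22) and Abca12 (-0.17 to 0.26), and the median of the 8 genes was between -0.16 and 0.09 when an array was left out and 0.13 within slide 1. Over all genes the count was 279, and 132 without a filter on dim probes (18217 genes tested), 497 with the replicate block (litter pair), 539 blocked by slide and 130 in the pairs of slide 1. Leaving out 1 array gave 104, 71 and 151 without AhRCA 1, 2 and 3, and 195, 62 and 185 without WT 1, 2 and 3; the cause was not tested beyond the smaller number of arrays. Among the other listed genes the litter pair block ended the call of Krt15 and added those of H2-Ab1, Cd74, Scd3 and Slc4a1, as given above. Alox5 lies near background on part of its probes, and Alox15 and Alox8 in AhRCA lie below it, where array signals give bounds only.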
